A study of Homo sapiens with 6 samples.

Results

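The genes described here are ligands, receptors, inhibitors and response genes of bone morphogenetic protein (BMP) signalling. They are the ligand genes BMP2, BMP4 and BMP7, the receptor genes BMPR1A and BMPR2, the inhibitory SMAD genes SMAD6 and SMAD7, and the response genes ID1, ID2 and ID3. They were chosen by name, and every probe set whose single annotated gene symbol was one of these names was taken. Of the 10 genes, 9 were measured by 22 probe sets, out of 19775 genes and 41091 probe sets tested. BMPR1A is not analysed here. RNA came from SW-1990, an established human pancreatic adenocarcinoma line taken from a spleen metastasis. It was hybridised to 6 Affymetrix U133 Plus 2.0 arrays. Lentivirus delivered a scrambled short hairpin RNA (shRNA) to the control cells, called sh-Ctrl or controls, and an shRNA against PRLR, the prolactin receptor, to the others, called sh-PRLR. All cells had been kept in puromycin at 1 μg/ml for more than 7 days, and each group had 3 arrays given as biological replicates. The labels do not say how many shRNA sequences were used, whether the cells were pools or clones, or whether the replicates were separate infections, so p-values measure the spread between these samples.

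BMPs are secreted factors of the TGF-beta family that bind a complex of type I and type II serine/threonine kinase receptors. The activated type I receptor phosphorylates SMAD1, SMAD5 and SMAD9, which enter the nucleus with SMAD4 and switch on target genes, among them the ID genes and the inhibitory SMADs that feed back on the pathway. ID proteins have a helix-loop-helix domain without a DNA-binding region and hold E proteins, such as those encoded by TCF3 and TCF12, away from DNA. In the pancreas, BMP signalling takes part in development and in the behaviour of ductal tumour cells.

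The ID genes are the best known direct transcriptional targets in the pathway, and the sequence upstream of each start is shown because ID1 rose while ID2 fell. The 250 bases before each RefSeq start (GRCh38.p14) are written 5′ to 3′ on the gene's strand. ID1 lies at chr20:31605039-31605288 on the plus strand, ID2 at chr2:8681806-8682055 on the plus strand and ID3 at chr1:23559502-23559751 on the minus strand. Capitals mark matches, on either strand, to CAGAC, a SMAD box, or GGAGCC, 1 form of the GC-rich SMAD1/5 element.
ID1: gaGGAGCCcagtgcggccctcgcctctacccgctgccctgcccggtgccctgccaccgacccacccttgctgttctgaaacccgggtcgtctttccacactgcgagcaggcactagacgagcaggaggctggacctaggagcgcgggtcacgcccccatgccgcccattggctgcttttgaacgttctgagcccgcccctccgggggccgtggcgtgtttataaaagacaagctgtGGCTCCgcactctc
ID2: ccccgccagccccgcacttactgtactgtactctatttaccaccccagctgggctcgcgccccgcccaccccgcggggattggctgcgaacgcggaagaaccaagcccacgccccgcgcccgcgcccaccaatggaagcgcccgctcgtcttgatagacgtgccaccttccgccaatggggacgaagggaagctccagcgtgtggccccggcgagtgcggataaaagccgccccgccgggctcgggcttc
ID3: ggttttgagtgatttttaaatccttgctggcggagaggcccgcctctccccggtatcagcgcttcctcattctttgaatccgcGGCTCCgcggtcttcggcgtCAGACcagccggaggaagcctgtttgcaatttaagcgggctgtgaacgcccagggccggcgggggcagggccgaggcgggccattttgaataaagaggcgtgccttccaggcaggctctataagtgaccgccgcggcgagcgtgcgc

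Motifs were searched on both strands in windows from 250 bases before to 50 after each start in the RefSeq promoter table. The ID1 window held 2 matches to GGAGCC, the first base of the motif lying 248 and 14 bases before the start. The ID3 window held 1 match to CAGAC, 147 bases before the start, and 1 to GGAGCC, 167 bases before it. Another form of the GC-rich element, GGCGCC, and an E-box, CACGTG, were searched too. In the ID2 window 0 matches were found to any of these motifs. These motifs do not overlap one another and are common, since the SMAD box CAGAC was held by 45.3% and the element GGAGCC by 36% of all 35116 windows in the table. For the other GC-rich form and the E-box the shares were 19.2% and 7.26%, respectively. The table held 12 windows for 8 of the 10 genes, of which 7 held the SMAD box, 6 and 2 the GC-rich forms in the order given, and 1 the E-box. A match or its absence describes only the letters in the window, and sequence farther from the start was not searched.

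In sh-PRLR cells BMP4 and ID2 fell and ID1 rose, each by less than 2-fold. BMP4, a ligand, was at 0.750 of its sh-Ctrl level, ID2 at 0.826 and ID1 at 1.20 times. The changes of BMP2, BMP7, BMPR2, ID3, SMAD6 and SMAD7 did not pass. The test was limma with a variance that depends on intensity (trend and robust), adjusted over all genes by Benjamini-Hochberg with a threshold of 0.05, on the brightest probe set of each gene. It called 3 of these 9 genes, against 7.66% of all genes. A dim limit was set at 5.93 on the log2 scale, below which the 40% dimmest genes lay, and 3 of the 7 genes above it were called, against 12.5% of all genes above it. With limma's default variance 0 of the 9 passed, against 0.0202% of all genes, where 3209 genes had an unadjusted p under 0.05. Without sh-Ctrl replicate 2 only BMP4 was called, 1 of the 9, against 665 of all 19775 genes. In 5 of the 9 genes the 3 arrays of one group all lay above those of the other, against 25.8% of all genes. The median log2 change was -0.23 over the 9 genes and -0.0013 over all genes.

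**Figure D1:**
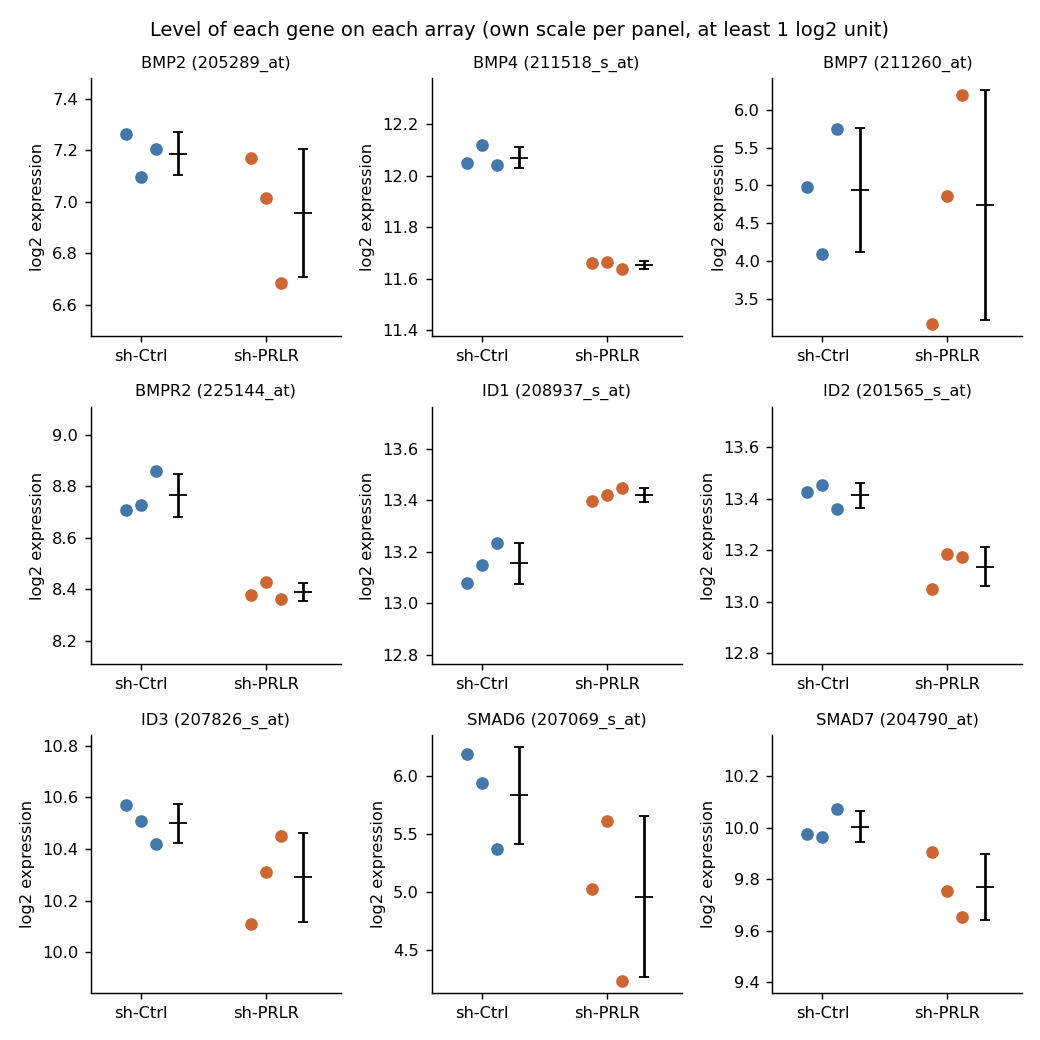
Each panel plots the log2 expression of 1 gene, by its brightest probe set, on each of the 6 arrays (points; sh-Ctrl blue, sh-PRLR orange), with the mean and SD over 3 arrays beside them; each panel has its own vertical scale. BMP4, BMPR2, ID1, ID2 and SMAD7 show groups that do not overlap, with ID1 the only 1 of these higher in sh-PRLR, while BMP7 and SMAD6 scatter over more than 1 log2 unit.

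The targeted gene was checked over its 7 probe sets, all with a lower mean in sh-PRLR. Averaged over them, PRLR read 5.23, 5.03 and 4.79 in the controls and 3.94, 4.38 and 4.19 in sh-PRLR, a log2 difference of -0.85 (two-sided exact permutation p = 0.1, the lowest value open to groups of 3). All 7 lay below the dim limit, 4 of them had overlapping groups, and 0 of the 7 passed in the fit over all probe sets (lowest limma adjusted p = 0.0948; 2 had an unadjusted p under 0.05). Epithelial markers were present, with 6 of 6 (among them EPCAM, KRT8, KRT18 and KRT19) above the dim limit. Of all 21 markers measured 1 passed, the epithelial cadherin gene CDH1, which fell (log2 change -0.17, SE 0.04, groups not overlapping, limma adjusted p = 0.0284). Of markers of other cells, 2 of 7 fibroblast, 1 of 4 leukocyte and 1 of 4 endothelial genes lay above the dim limit. The 3 arrays' summed log2 level of the 7 fibroblast markers ran from 35.8 to 36.5 in the controls and from 29.4 to 33.3 in sh-PRLR, so that the groups did not overlap, and COL1A2, COL3A1, LUM, PDGFRA and PDGFRB lay below the limit. For the 4 leukocyte markers the sums ran from 17.7 to 21.1 and from 18.2 to 21.8, and for the 4 endothelial markers from 10.9 to 18.0 and from 15.6 to 20.0. The part of these markers in the results below was not tested. In bulk RNA of an established line, the number of cells that hold a transcript and its level per cell cannot be told apart.

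Among the ligands, BMP4 gave the smallest p of all 9 genes. The gene lies at chr14:53949736-53956891 (GRCh38.p14) and was read by 1 probe set, 211518_s_at. Its log2 level was 12.05, 12.12 and 12.04 in the controls and 11.66, 11.66 and 11.64 in sh-PRLR. The lowest control array was thus 0.38 log2 units above the highest sh-PRLR array, against a range of 0.08 within the controls and 0.03 within sh-PRLR. The log2 change was -0.42 (SE 0.05, 95% interval -0.53 to -0.31, limma adjusted p = 0.000938). BMP4 passed in 12 of 13 other settings, and the exception was limma's default variance (adjusted p = 0.0888).

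BMP2, a close relative of BMP4 that binds the same receptors, lies at chr20:6767686-6780246. Its brighter probe set, 205289_at, read 7.26, 7.10 and 7.20 in the controls and 7.17, 7.01 and 6.69 in sh-PRLR. The other, 205290_s_at, read 6.74, 7.26 and 7.09 against 6.67, 6.89 and 6.59. The groups overlapped on both probe sets, though the sh-PRLR mean was lower on each. The log2 differences were -0.23 (95% interval -0.68 to 0.22, limma adjusted p = 0.601) and -0.31, so that a fall as large as that of BMP4 lies within the interval. Without sh-PRLR replicate 3 the difference on the brighter probe set was -0.10.

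BMP7, a ligand of another BMP subgroup, lies at chr20:57168753-57266641 and was read by 4 probe sets, all below the dim limit. The brightest, 211260_at, read 4.98, 4.10 and 5.74 in the controls and 3.16, 4.87 and 6.19 in sh-PRLR. Across the 4 probe sets single values ran from 0.44 to 6.19, and 3 had a lower and 1 a higher mean in sh-PRLR, with groups overlapping on all 4. The difference on 211260_at was -0.20 with a 95% interval from -1.96 to 1.56 (limma adjusted p = 0.927), which leaves its direction unresolved on these arrays. Its sign turned without sh-Ctrl replicate 3 (0.20) and without sh-PRLR replicate 1 (0.59).

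BMPR2, the type II receptor for BMPs, lies at chr2:202376327-202567749, and its 6 probe sets did not move together. The brightest, 225144_at, read 8.71, 8.73 and 8.86 in the controls and 8.38, 8.43 and 8.36 in sh-PRLR. These groups did not overlap, and the log2 difference was -0.38 (SE 0.11, 95% interval -0.61 to -0.14, limma adjusted p = 0.0613), just short of the threshold. Probe set 231873_at, which read 7.29, 6.81 and 6.71 against 6.53, 6.60 and 6.71, was lower as well (-0.32), with its groups separated by 0.0042 log2 units. The opposite sign was seen on 210214_s_at, at 7.27, 7.39 and 7.33 against 7.24, 7.68 and 7.81 (0.25). It was also seen on 209920_at, at 7.02, 7.32 and 7.61 against 7.71, 7.56 and 7.44 (0.25). Probe set 238516_at differed by -0.03. The 1 probe set below the dim limit, 1556075_at, read 2.88, 2.65 and 5.76 against 4.73, 5.76 and 5.94, and its control arrays spread over 3.11 log2 units. In the fit over all probe sets 0 of the 6 passed, also with limma's default variance, and 1 of them, 225144_at, had an unadjusted p under 0.05. Without the 40% dimmest genes BMPR2 passed through 225144_at (limma adjusted p = 0.0352), whereas the mean of its 6 probe sets differed by 0.25 in the other direction and did not pass (limma adjusted p = 0.664). Which transcripts each probe set reads was not examined.

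**Figure D2:**
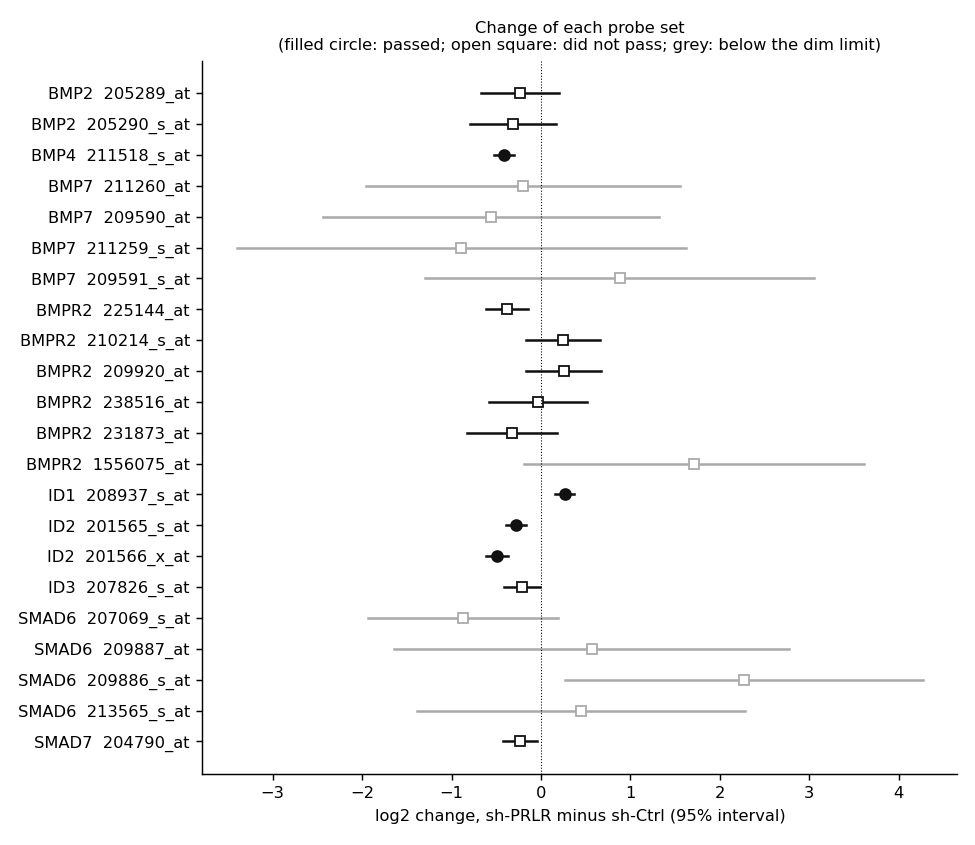
The log2 change (sh-PRLR minus sh-Ctrl, horizontal axis) with its 95% interval from limma is drawn for each of the 22 probe sets, listed by gene and by brightness within a gene. The 4 filled circles passed an adjusted p of 0.05 over all 41091 probe sets (BMP4, ID1 and both ID2 probe sets), the open squares did not, and the 9 grey probe sets below the dim limit have the widest intervals.

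The ID genes, read at high signal, divided in direction. ID1 (chr20:31605289-31606510) had 1 probe set, 208937_s_at, at 13.08, 13.15 and 13.24 in the controls and 13.40, 13.42 and 13.45 in sh-PRLR. All sh-PRLR arrays lay above all control arrays, by at least 0.16 log2 units. The log2 change was 0.27 (SE 0.05, 95% interval 0.16 to 0.38, limma adjusted p = 0.00941). The call was lost with limma's default variance (adjusted p = 0.193), without sh-Ctrl replicate 2 (0.0523), and with each array centred on the median of all probe sets (0.289).

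ID2 (chr2:8682056-8684461) had 2 probe sets, and both fell. The brighter, 201565_s_at, read 13.43, 13.45 and 13.36 in the controls and 13.05, 13.18 and 13.17 in sh-PRLR. The other, 201566_x_at, whose suffix marks probes that can match other transcripts, read 12.23, 12.23 and 12.10 against 11.72, 11.66 and 11.72. On both, every sh-PRLR array lay below every control array. The log2 changes were -0.28 (SE 0.05, 95% interval -0.39 to -0.16) and -0.49 (SE 0.06), with limma adjusted p = 0.0115 and 0.000972 in the probe set fit, and 0.00891 for the brighter in the gene fit. The call on 201565_s_at was lost with limma's default variance (adjusted p = 0.188), without sh-Ctrl replicate 2 (0.0582), and with arrays centred on the median of all genes (0.0514) or of all probe sets (0.0989).

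ID3 (chr1:23557926-23559501) was read by 207826_s_at at 10.57, 10.51 and 10.42 in the controls and at 10.11, 10.31 and 10.45 in sh-PRLR. The groups overlapped through sh-PRLR replicate 3, the highest of its group. The log2 difference of -0.21 (95% interval -0.41 to -0.01) did not pass limma over all genes (adjusted p = 0.224). It was negative in all 13 other settings, from -0.29 to -0.12, and passed in 0 of them.

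Because the scaling of an array moves all its genes together, the change of ID1 relative to other members was also taken within each array, a comparison chosen after the values were seen. The log2 difference ID1 minus ID2 was -0.35, -0.30 and -0.12 in the controls and 0.34, 0.23 and 0.27 in sh-PRLR. It was 0.54 higher in sh-PRLR. Its groups could not overlap, since those of ID1 and of ID2 already lay apart in opposite directions. ID1 minus ID3 was 2.65 ± 0.15 in the controls and 3.13 ± 0.15 in sh-PRLR (SD, n = 3), and ID1 minus BMP4 was 1.08 ± 0.09 and 1.77 ± 0.04. ID2 minus BMP4 was 1.34 ± 0.03 and 1.48 ± 0.08, a smaller shift of 0.14. No test is given, since the pairs were picked for the directions already seen in the genes.

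The inhibitory SMADs block receptor signalling and are induced by it. SMAD7 (chr18:48919853-48950965) was read by 204790_at at 9.98, 9.96 and 10.07 in the controls and 9.91, 9.75 and 9.65 in sh-PRLR. The groups did not overlap, though sh-PRLR replicate 1 lay only 0.06 log2 units below the lowest control. The log2 difference of -0.23 (SE 0.09, 95% interval -0.42 to -0.04) did not pass limma (adjusted p = 0.144), nor did it in any of 14 other settings (adjusted p from 0.0652 to 0.374).

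SMAD6 (chr15:66702236-66782849), the inhibitor more specific to BMP receptors, had 4 probe sets, all below the dim limit. The brightest, 207069_s_at, read 6.19, 5.94 and 5.38 in the controls and 5.03, 5.62 and 4.23 in sh-PRLR. The next, 209887_at, read 3.72, 1.53 and 3.35 against 2.88, 2.31 and 5.12. Probe set 209886_s_at read 1.45, 2.03 and 1.43 against 4.69, 4.76 and 2.28, and did not overlap between groups. Thus 1 probe set had a lower and 3 a higher mean in sh-PRLR, and 0 of the 4 passed in the fit over all probe sets. The log2 difference on 207069_s_at was -0.88 (95% interval -1.95 to 0.20, limma adjusted p = 0.358), and the mean of the 4 probe sets differed by 0.60 (limma adjusted p = 0.686).

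Over all 22 probe sets, 1 was called higher and 3 lower, against 4.67% of all probe sets called in either direction, and 8 had groups that did not overlap, against 22.6%. Of the 13 above the dim limit 10 had a lower and 3 a higher mean in sh-PRLR. With limma's default variance 0 probe sets of any gene passed over all probe sets.

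**Figure D3:**
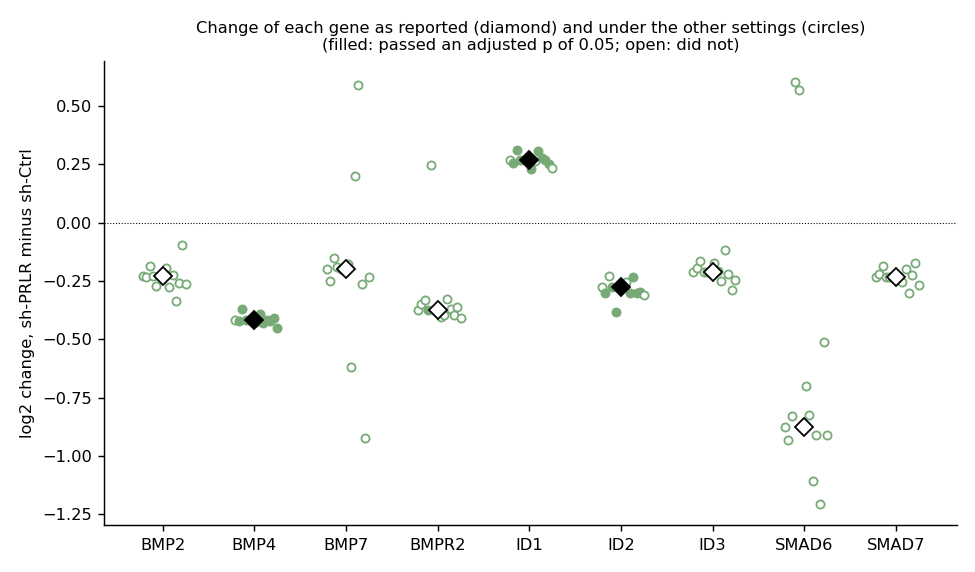
The log2 change (sh-PRLR minus sh-Ctrl, vertical axis) of each of the 9 genes is plotted as reported (diamond) and under each of the other settings in which it was measured (circles), filled where the adjusted p was under 0.05. BMP4, ID1 and ID2 stay within narrow ranges (-0.45 to -0.37, 0.23 to 0.31 and -0.38 to -0.23), while BMP7, BMPR2 and SMAD6 cross 0.

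The rest of the pathway was described from 7 lists of other genes. Of 74 measured genes 2 rose and 6 fell, against 3.34% of all genes called higher and 4.32% called lower. In 25 of the 74 (33.8%) the groups did not overlap, against 25.8% of all genes. Of all genes above the dim limit 12.5% were called and 35.6% had groups that did not overlap. The 74 include genes below that limit, so their shares and these are not like for like. The median log2 change over the 74 was -0.04, and 47 lay above the dim limit. Limma's default variance called 0 of the 74.

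Of 10 other BMP ligands 0 passed, and 9 of them lay below the dim limit. BMP8B, the brightest, was at 8.76 ± 0.13 in the controls and 8.67 ± 0.12 in sh-PRLR (limma adjusted p = 0.722). Of 9 receptors and co-receptors 1 rose and 1 fell, and they were the activin type II receptors, which BMPs also use. ACVR2A fell from 10.15 ± 0.07 to 9.79 ± 0.03 (log2 change -0.37, limma adjusted p = 0.0130), and ACVR2B rose from 9.17 ± 0.06 to 9.64 ± 0.11 (0.47, limma adjusted p = 0.0109). The second ACVR2A probe set differed by 0.13 and did not pass, so that this fall rests on 1 of 2 probe sets. ACVR2B had the sign given on 2 of 3, but only 1 of the 3 passed in the probe set fit. The mean of its probe sets differed by 0.20 and did not pass (limma adjusted p = 0.546).

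Of 14 antagonists 1 fell, BAMBI, a pseudoreceptor without a kinase domain whose gene is itself induced by BMP and TGF-beta. It read 10.58, 10.69 and 10.68 in the controls and 10.13, 10.01 and 10.02 in sh-PRLR. The groups lay well apart, with a log2 change of -0.60 (SE 0.07, limma adjusted p = 0.000878). Of the 8 pathway genes called, BAMBI kept its call most often, in 13 of 14 other settings. The secreted antagonists NOG, CHRD and GREM1 lay below the dim limit and did not pass. Other genes of the list, TWSG1 (mean level 13.18), NBL1 (9.85) and FSTL3 (7.98), lay above it and did not pass either. NBL1 differed by -0.34, with groups that did not overlap (limma adjusted p = 0.127).

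Of 12 SMADs and SMAD regulators 2 fell and 1 rose. SMAD1 fell from 11.18 ± 0.02 to 10.92 ± 0.06 (-0.26, limma adjusted p = 0.0223), and SMAD5 from 10.80 ± 0.01 to 10.50 ± 0.06 (-0.30, limma adjusted p = 0.0158); both carry the BMP signal to the nucleus. All 3 SMAD1 probe sets were lower in sh-PRLR, but only 1 of the 3 passed in the probe set fit. Of 5 SMAD5 probe sets 1 passed in that fit, and 2 were higher in sh-PRLR without passing. The larger of these SMAD5 differences in the opposite direction was 0.16, between groups that did not overlap (limma adjusted p = 0.274). SKIL, a co-repressor of SMADs, rose from 9.77 ± 0.08 to 10.21 ± 0.05 (0.43, limma adjusted p = 0.00701), on the brightest of 5 probe sets, of which 3 had the opposite sign. The next brightest was lower in sh-PRLR by more than that (-0.48), with groups that did not overlap, and did not pass (limma adjusted p = 0.0793). The shared partner SMAD4 was at 11.58 ± 0.06 and 11.46 ± 0.09 and did not pass (limma adjusted p = 0.314).

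Of 12 other BMP response genes 1 fell, the homeobox gene MSX2, from 9.85 ± 0.01 to 9.51 ± 0.07 (-0.34, limma adjusted p = 0.0245), on 1 of 3 probe sets. The fourth ID gene, ID4, was at 6.17 ± 0.66 and 6.25 ± 0.78 and did not pass (limma adjusted p = 0.952). Of the 3 E protein genes, whose products ID proteins bind, 0 passed. TCF12, the brightest of them, was at 12.28 ± 0.05 and 12.15 ± 0.08 (limma adjusted p = 0.244). Of 14 genes of the TGF-beta branch 1 fell, LTBP1, which holds latent TGF-beta in the matrix, from 9.03 ± 0.14 to 8.33 ± 0.01 (-0.70, limma adjusted p = 0.00431). TGFBR1, TGFBR2 and TGFBR3 differed by 0.15, 0.17 and 0.28 without passing.

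Of 14 other settings SKIL passed in 11, ACVR2B in 10, ACVR2A in 8, SMAD1 in 6, SMAD5 in 5 and MSX2 in 3, and LTBP1 passed in 11 of 13. Without sh-Ctrl replicate 2, or without sh-Ctrl replicate 3, 4 of the 74 genes were called, against 665 and 893 of all 19775 genes. The count was 5 without sh-Ctrl replicate 1 and 5 without sh-PRLR replicate 2, against 821 and 859 of all genes. The direction turned, without passing, for ACVR2A (0.13) and MSX2 (0.06) when probe sets named _x_at or _s_at were left out, and for SKIL (-0.04) when probe sets were averaged.

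**Figure D4:**
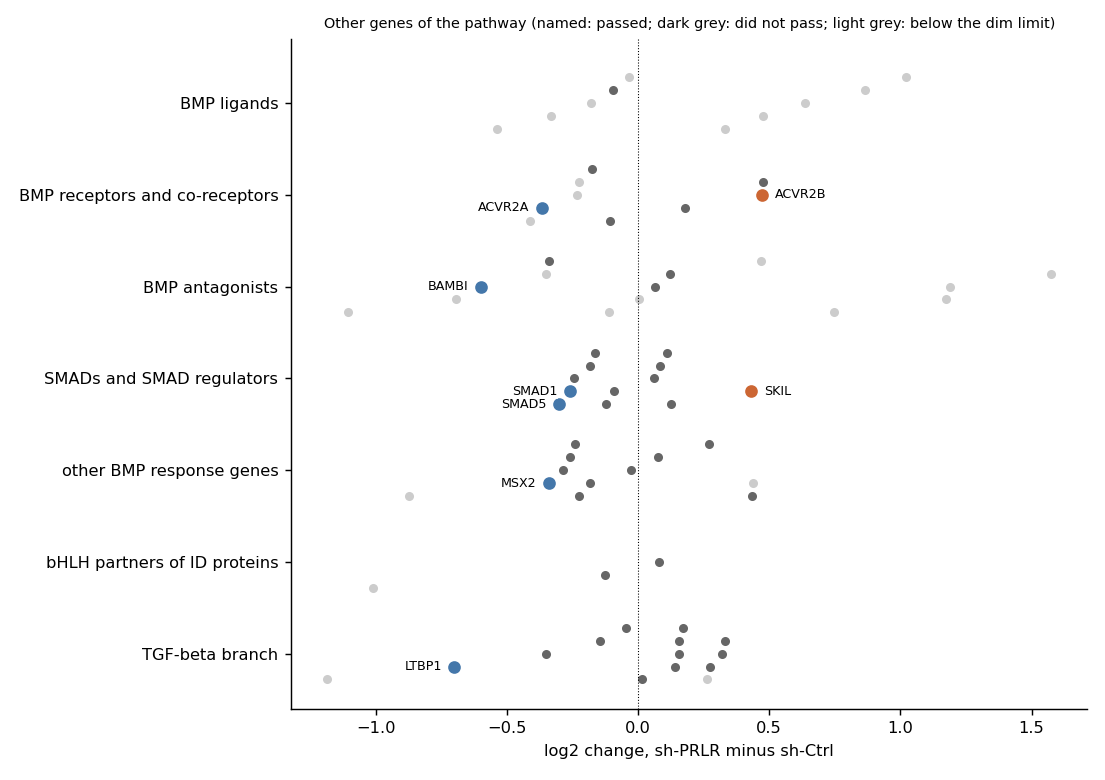
Each point is the log2 change (sh-PRLR minus sh-Ctrl, horizontal axis) of 1 of 74 other pathway genes, grouped by list, with small vertical offsets for legibility only. The 8 named genes passed (6 lower in blue, 2 higher in orange), dark grey genes did not pass, and the light grey genes below the dim limit spread most widely.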

How the data were processed

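The authors deposited log2 values for each probe set on each array, and the submitters' processing notes name MAS5, RMA and affy without role or version. The 2% trimmed linear mean was 500 on all 6 arrays, so values were not normalised again. No detection call was used. Of 54675 probe sets, 41097 carried 1 symbol in the platform annotation, 1801 several and 11777 none, and 62 control probe sets were left out. For a gene with several probe sets, the brightest on average over the 6 arrays was used. Groups were compared two-sided with limma 3.58.1 in R 4.3.3 (lmFit, eBayes with trend and robust, no block), with p-values adjusted by Benjamini-Hochberg over all genes, and separately over all probe sets. The fit was tested on simulated data whose scatter followed intensity as the fit assumes, with changes larger than those of BMP4, ID1 and ID2. That test does not bear on the choice of variance model. The genes, lists, markers, motifs, variance model and settings were chosen with earlier results of these data known. The named genes are PRLR, the genes described, up to 4 of each list that passed with the smallest p, the brightest of a list without one, and the 5 genes most like ID1. Others named (NOG, CHRD, GREM1, TWSG1, NBL1, FSTL3, SMAD4, ID4, the TGF-beta receptors and markers) were chosen after their values were seen. Other settings were limma's default variance, quantile normalisation, median centring, no dim genes, averaged probe sets, no _x_at or _s_at probe sets, the replicate block, and each array left out; centring on all probe sets was added after seeing the data. Promoter windows and gene positions come from RefSeq tables (GRCh38.p14). Figures used Python 3.11.15 and matplotlib 3.10.9. The number of arrays limits the precision.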

Additional observations from a re-analysis of the deposited data

How the results depend on the processing

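The counts as reported were 1514 genes (660 higher, 854 lower), 1918 probe sets, 3 of the 9 genes described and 8 of 74 other pathway genes. With limma's default variance they were 4, 0, 0 and 0; 2 of the 4 genes were higher, and 3209 genes had an unadjusted p under 0.05. Centring on the median of all genes gave 990 genes and 4 pathway genes, and 57.6% of called genes were higher in place of 43.6%. The probe set fit, centred on the median of the probe sets tested, gave 719 probe sets. Centring on the median of all probe sets gave 506 genes (28.3% higher), 1 of the 9, BMP4, and 2 pathway genes. The median change over all genes was 0.05 with genes centred on the median of all genes and -0.04 on that of all probe sets. Averaging probe sets gave 609 genes and 1 pathway gene, with BMPR2 (0.25) and SMAD6 (0.60) turned in sign. Without _x_at and _s_at probe sets 5 pathway genes and 0 of the 9 passed, since BMP4, ID1, ID2 and ID3 then had no probe set, and SMAD6 turned to 0.57. Leaving out each array gave 665 to 1322 genes, 777 to 1606 probe sets, 1 to 3 of the 9 and 4 to 9 pathway genes, with the lowest gene and probe set counts without sh-Ctrl replicate 2. BMP7 ran from -0.93 to 0.59 without single arrays, being 0.20 without sh-Ctrl replicate 3 and 0.59 without sh-PRLR replicate 1. Without the 40% dimmest genes 2026 of the 11865 genes left passed. Among them were 4 of the 7 genes described that remained and 12 of 47 pathway genes. Without the 40% dimmest probe sets 2706 probe sets passed. Quantile normalisation gave 1548 genes and 3 of the 9. PRLR differed by -0.96 to -0.73 without single arrays. The cause of these shifts was not tested. Arrays with the same replicate number did not deviate together (correlations -0.07, 0.04 and -0.10). With the replicate number as a block, 1090 genes, 1323 probe sets, 7 pathway genes and 3 of the 9 passed, and the block changed no call among the 9. Below the dim limit, 9 of the 22 probe sets allow no statement on small changes.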

Other observations

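The genes whose levels followed ID1 most closely over the 6 arrays were PAK2, a kinase acting below small GTPases (Pearson r = 0.996), C14orf119 (0.992), DENND5B (0.992), the receptor gene FGFR1 (0.991) and RRAGD, a GTPase of amino acid sensing (0.990). They were taken from 9881 genes above the median gene level of 7.23 on the log2 scale, and 568 of those had an r above 0.9. The 6 arrays fall into 2 groups, and r is given as a description. The log2 differences of the 5 genes, sh-PRLR minus sh-Ctrl, ran from 0.12 for PAK2 to 0.37 for DENND5B, and 0 of the 5 passed limma over all genes (adjusted p from 0.0649 for RRAGD to 0.247 for PAK2).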
